A study of Camelina sativa with 159 samples.

Results

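CN 113690 was the earliest of the early flowering accessions of Camelina sativa in this RNA sequencing survey of leaves, with a labelled flowering time (FT, days until the plants of a plot were counted as flowering) of 43 days. The 3 libraries labelled with this genotype (Cs106, Cs144 and Cs145), of 159 in the count table, were set against 48 libraries of 33 other accessions with an FT of 44.29 to 47.86 days. Both sides were restricted to libraries with a Cs code and at least 200000 counts, and the cultivar Licalla was left out. None of the accessions was treated, and each group is a natural genotype. RNA came from fully expanded true leaves of young greenhouse seedlings, whereas FT was scored on field plots, and the text of the study gives a later FT for CN 113690 than its label does. Nothing in the labels says whether the 3 libraries came from separate plants, although the methods of the study refer to 3 biological replicates.

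C. sativa is a hexaploid oilseed of the Brassicaceae, so most genes are present as similar copies on its 3 sub-genomes, and reads from near-identical copies can be assigned to either copy. Accessions are genetically distinct lines kept by a gene bank. Counts against 1 reference genome cannot tell a gene that is silent from one that is missing or too divergent for its reads to align, nor a more active gene from one with more copies. In the related Arabidopsis, leaves sense day length and send a mobile flowering signal to the shoot apex, where integrator genes such as SOC1, a MADS-box factor that promotes flowering, mainly act. SPL factors promote flowering with plant age and AP2-like factors such as SNZ repress it. Gene models are given by the identifiers of the count table, in which Csa13g001000 is a locus of chromosome 13 and the last digits follow the order along it. Symbols are given only where the study names the gene. Coordinates and sequences were not used here.

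The CN 113690 libraries held 4545438, 7139718 and 4596921 counts (Cs106, Cs144, Cs145), and the other 48 held 444464 to 15246389, with a median of 4627192. Across genes, log CPM (CPM is the count scaled to a common library size by the TMM method) of the CN 113690 libraries correlated with each other at r = 0.9560 to 0.9630, against 0.8239 to 0.9727 for the 17 pairs within other accessions and a median of 0.9095 between accessions. The library closest to Cs106 and Cs144 outside the accession was that of CAM 229 (0.9296 and 0.9391), and the one closest to Cs145 was a library of CN 113731 (0.9332). The 3 libraries differed from each other by more than sampling noise, so all were kept as separate. Of 2 leaf genes with known products, the phytoene desaturase gene Csa11g040110 lay at 56.9, 51.4 and 57.4 CPM, inside the other libraries' range of 42.1 to 78.2. A chlorophyll a/b-binding protein gene, Csa06g036860, lay at 467, 798 and 805 CPM, in the lower part of the range of 377 to 2835 (median 1680). CN 113690 ranked 33rd of 34 accessions for it (log2 difference -1.24, SE 0.65, unadjusted p = 0.0629 and adjusted p = 1 in edgeR's quasi-likelihood test). Whether the leaf state behind this level had a part in the differences below was not tested.

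Library Cs144 stood apart from the other 2 in a set of genes high in it but not in them. Across all genes it did not: Cs144 and Cs145 correlated at r = 0.963. Cs106 correlated with Cs144 at 0.958 and with Cs145 at 0.956. It had 71 genes at 3 CPM or more and at least 10-fold over both Cs106 and Cs145, while Cs106 had 0 such genes and Cs145 had 5. The same count in the 2 other accessions with 3 Cs libraries was 44, 0 and 0 in CN 113717 and 16, 18 and 3 in CN 113757. Every result below is therefore given with and without Cs144 where that library decides it.

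Counts were summed per accession, and the CN 113690 sum was tested against the spread of the 33 others with edgeR's quasi-likelihood test, assuming that the lone sum varies as the others do. Of 51201 gene models tested, 80 (0.156%) had a Benjamini-Hochberg adjusted p under 0.05, of which 55 (0.107%) were higher and 25 (0.0488%) were lower in CN 113690. At an unadjusted p under 0.05 there were 1275. A model needed enough counts in 1 accession alone to enter the fit, so a gene high only in CN 113690 passed through that accession. Of the 55 higher genes, 47 were raised in Cs144 alone by the measure above. In these, Cs144 held 3.26 to 22.8 CPM (median 5.56) and neither Cs106 nor Cs145 exceeded 0.99 CPM, with 42 of the 47 at 0 in Cs106. For 39 of the 47 the next highest of all other libraries was Cs048, of CN 101990. Without Cs144, 23 genes were called of 51160 tested, 5 higher and 18 lower, and all 18 lower ones and 4 of the 5 higher ones were among the first set. The lower genes thus rested far less on Cs144 than the higher ones.

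**Figure D1:**
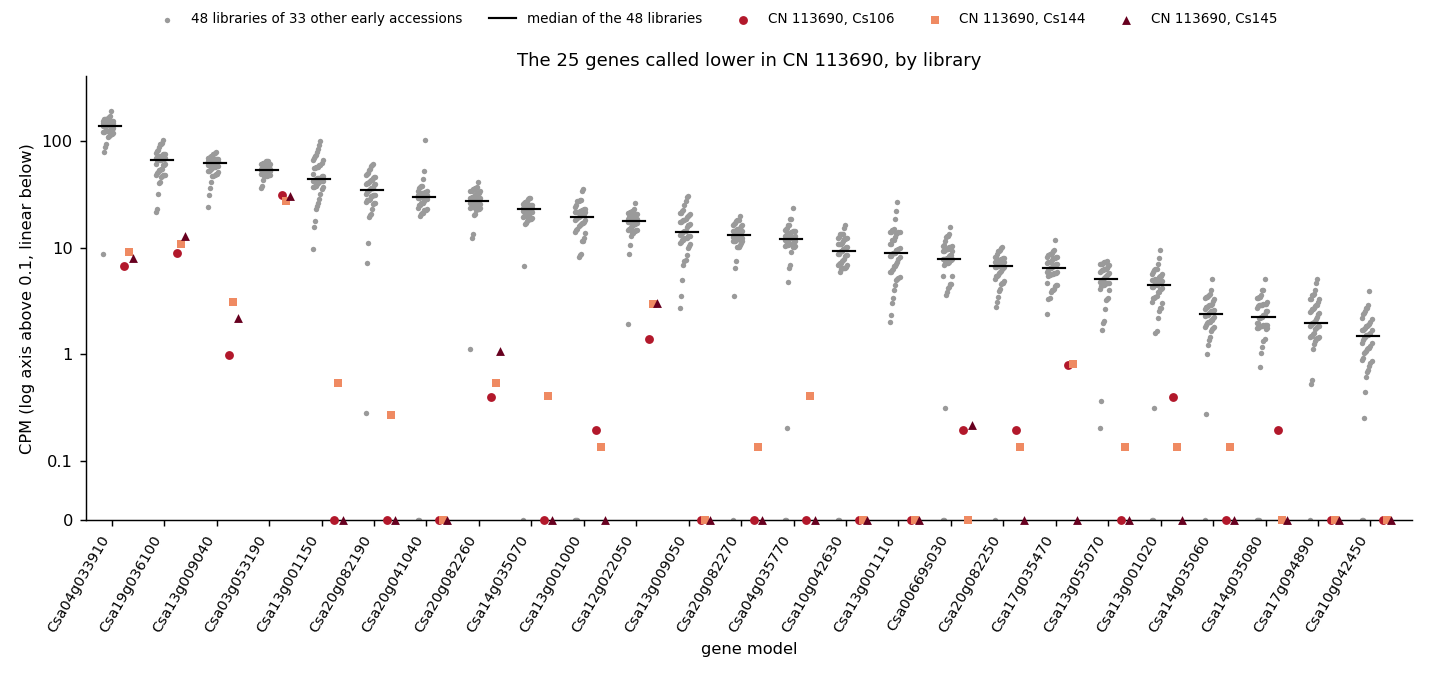
Expression (CPM, on an axis that is logarithmic above 0.1 and linear below) of the 25 genes called lower in CN 113690, ordered by the median of the other early accessions. Grey points are the 48 libraries of 33 other accessions, bars their median, and coloured symbols the 3 CN 113690 libraries, which lie at or near 0 for most genes and closest to the others for Csa03g053190.

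Most of the lower genes had next to no reads in CN 113690. Over the 3 CN 113690 libraries 6 of the 25 had no reads, 12 had 1 to 4 reads and 7 had 10 or more. In 10 of the 25, all 3 libraries were below every one of the other 48. For Csa20g082190, Csa20g082260 and Csa13g055070 among these, the margin was smaller than 1 read. In location, 11 of the 25 fell into 3 runs of neighbouring loci, at the start of chromosome 13, at the end of chromosome 20 and in the interior of chromosome 14. The plot of the 25 lower genes shows that other accessions rarely reached the level of CN 113690.

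The run on chromosome 13 began at the first annotated locus. Of its first 16 loci (of 3771 on the chromosome), 4 were called lower, namely Csa13g001000, Csa13g001020, Csa13g001110 and Csa13g001150. The highest of them, Csa13g001150.1, had 0, 0.54 and 0 CPM against 9.59 to 99.5 CPM in the other libraries (median 44.2). This is 4 reads in CN 113690, and the log2 difference was -7.58 (SE 1.07, adjusted p = 4.0e-05). Csa13g001110.1 had no read in any CN 113690 library against 2.02 to 26.9 CPM elsewhere (median 8.84). It was at least 55.4-fold lower when CN 113690 is set to a floor of 3 reads over its 3 libraries (adjusted p = 5.1e-04). The first locus, Csa13g001000.1, had 0.20, 0.14 and 0 CPM against a median of 19.5. The mean of the other accessions over the CN 113690 sum was a ratio of 163 (95% interval from the 2 reads 45.1 to 1350, counting error only). Of the 6 gene models of this span with a median of at least 1 CPM in the other libraries, all were below 0 in log2 difference and 5 were under 10% of that median in CN 113690. The summed level of the 4 called genes was 0.59, 0.81 and 0 CPM in the 3 CN 113690 libraries and at least 44.4 CPM in each of the other 47 libraries that exclude CN 113742. CN 113742 carried part of the same pattern: its only Cs library had no read for Csa13g001000 and Csa13g001020 but 65.8 CPM over the 4 genes. With libraries of all code series, Csa13g001000 and Csa13g001020 missed the threshold (adjusted p = 0.0995 and 0.237).

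Of the last 10 loci of chromosome 20 (3872 loci), 4 were called lower. These were Csa20g082190, Csa20g082250, Csa20g082260 and Csa20g082270, the last of which is next to the final locus. Csa20g082190.1 had 0, 0.27 and 0 CPM against 0.28 to 60.5 CPM (median 34.8) and Csa20g082260.1 had 0.40, 0.54 and 1.08 CPM against 1.12 to 41.2 (median 27.2). The fitted log2 difference of Csa20g082260.1 was -5.35 (SE 0.85, adjusted p = 3.3e-04). The low loci were not continuous. Csa20g082210.1, Csa20g082220.1 and Csa20g082240.1, which lie between the called loci, still had 49, 61 and 49 reads in CN 113690, with log2 differences of -0.58, -1.19 and -0.93 (each adjusted p = 1). Summed over the 4 called genes, CN 113690 had 0.59, 1.09 and 1.08 CPM, the Cs library of CN 113656 had 1.40 CPM, and the remaining 47 libraries had 25.9 to 110.97 CPM.

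In the chromosome 14 run, the adjacent loci Csa14g035060, Csa14g035070 and Csa14g035080 were all called. Csa14g035070.1 carried most of their expression elsewhere, with a median of 22.7 CPM and a highest value of 29.3 CPM, against 0, 0.41 and 0 CPM in CN 113690. From the 3 reads, the mean of the other accessions over the CN 113690 sum was a ratio of 120 (95% interval 41.1 to 582, counting error only; adjusted p = 5.2e-04). The sum of the 3 genes was 0.20, 0.54 and 0 CPM in CN 113690 and 0 CPM in the Cs library of CN 113726. The other 47 libraries had 9.53 to 36.4 CPM. Of the 13 other expressed gene models within 10 loci on either side of Csa14g035070, 0 were called and 0 were under 10% of the other libraries' median. Their log2 differences ran from -0.99 to 0.42.

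Beyond the runs, the smallest p of the whole comparison belonged to Csa13g009040.1. It had 0.99, 3.12 and 2.17 CPM in CN 113690 against 23.7 to 78.5 CPM (median 61.6) in all other libraries, so the groups were far from overlapping. The log2 difference was -4.73 (SE 0.33, adjusted p = 5.8e-12). The adjacent Csa13g009050.1 had no read in CN 113690 and 2.74 to 30.3 CPM elsewhere (median 14.1), which is at least 87-fold lower (adjusted p = 2.1e-05). Both had their lowest values in CN 113690, and no other early accession had either gene under 10% of the median. Csa13g055070.1, with 0, 0.14 and 0 CPM against 0.20 to 7.56 (median 5.06), and Csa17g035470.1, with 0.79, 0.81 and 0 CPM against 2.36 to 11.8 (median 6.48), were likewise below every other library. Their adjusted p-values were 1.2e-03 and 1.3e-03. The margin of Csa13g055070.1 was smaller than 1 read, as Cs144 had 0.14 CPM from 1 read and the lowest other library had 0.20 CPM.

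Other genes were reduced but clearly expressed. Csa04g033910.1, the most abundant of the 25 in other accessions, had 6.71, 9.09 and 8.01 CPM in CN 113690 against a median of 138.9 CPM (8.75 to 189). Among the Cs libraries of other early accessions only that of CAM 229, at 8.75 CPM, overlapped CN 113690 in this gene (log2 difference -4.03, SE 0.72, adjusted p = 2.0e-03). The 2 CAM 229 libraries of another code series had 11.4 and 75.75 CPM. The lowest of the 84 early libraries of other accessions and other code series had 10.3 CPM, and the late CN113692 had 6.10 CPM. Csa19g036100.1 had 8.89, 10.7 and 12.8 CPM against 21.6 to 102.2 (median 65.8), with a log2 difference of -2.58 (SE 0.43, adjusted p = 8.8e-04). Csa03g053190.1 was the mildest called fall, at 31.001, 27.404 and 30.091 CPM against 36.1 to 64.6 (median 53.3). Its log2 difference of -0.86 (SE 0.19) had an adjusted p of 0.0347, which became 0.176 without Cs144.

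Without Cs144, 7 of the 25 lower calls missed the threshold, namely Csa20g041040, Csa10g042630, Csa10g042450, Csa00669s030, Csa14g035080, Csa13g001020 and Csa03g053190. Csa20g041040.1, Csa10g042630.1 and Csa10g042450.1 had no read in any of the 3 CN 113690 libraries, and their medians elsewhere were 29.6, 9.21 and 1.48 CPM. Csa20g041040.1 was at least 156-fold lower over the 3 libraries together (adjusted p = 7.6e-03). Without Cs145, Csa14g035080 alone of the 25 missed the threshold, and without Cs106 none did.

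By accession sums of the Cs libraries, the low level of most of these genes was shared with 1 or 2 other early accessions. No accession shared more than 4. Sums can hide a single library without reads. Cs086 of CN 113757 had 0 CPM for Csa13g001000, and Cs088 of CN 113754 had 0 CPM for Csa04g035770 and Csa00669s030. Of the 24 genes with a log2 difference below -1, 22 were under 10% of the other accessions' median in CN 113690, 4 in CN 113656, 3 each in CN 113726 and CN 113742, and 2 each in CN 113724 and CAM 229. For 15 of the 24 at least 1 other early accession was that low, and for 9 none was. Among the 9, Csa12g022050 was above the 10% cut in CN 113690 too. Cs098 of CN 113746 had 1.91 CPM for it, within the CN 113690 values of 1.38, 2.99 and 3.03 CPM. CN 113724 and CN 113746 were both at 44.43 days and among the next earliest. By the 10% cut, Csa20g041040 was shared with the Cs libraries of both and Csa04g035770 with that of CN 113724. In the 2 further libraries of CN 113724, Csa20g041040 was at 27.8 and 41.2 CPM, around the median of 33.6 CPM of that series, and Csa04g035770 was at 0. Of the 4 late accessions (FT of 52 to 61.86 days), which entered no fit, all 4 were above 10% of the early median in 22 of the 24 genes. The exceptions were Csa04g033910 in CN113692 (6.10 CPM) and Csa13g055070 in CN113660 (0.27 CPM).

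The libraries of the other code series, which were left out of the main fit, showed that such low levels could differ between libraries of 1 accession. Both such libraries of CN 113742 had 0 and 0.22 CPM over Csa13g001000 and Csa13g001020, against a median of 17.5 CPM in the 84 other libraries (lowest 0), and both of CN 113746 had 0 CPM for Csa20g041040, unlike those of CN 113724. For the 4 genes at the end of chromosome 20, in contrast, the 2 further libraries of CN 113656 had 21.99 and 40.8 CPM (median of the others 86.8), although its Cs library had 1.40. Likewise, the 2 further libraries of CN 113726 with at least 200000 counts had 0 and 7.69 CPM over the chromosome 14 genes (median of the others 30.8, lowest 0), and 1 more, of 6414 counts, was left out. The 3 libraries of CN 113690 were alike in every one of these runs.

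**Figure D2:**
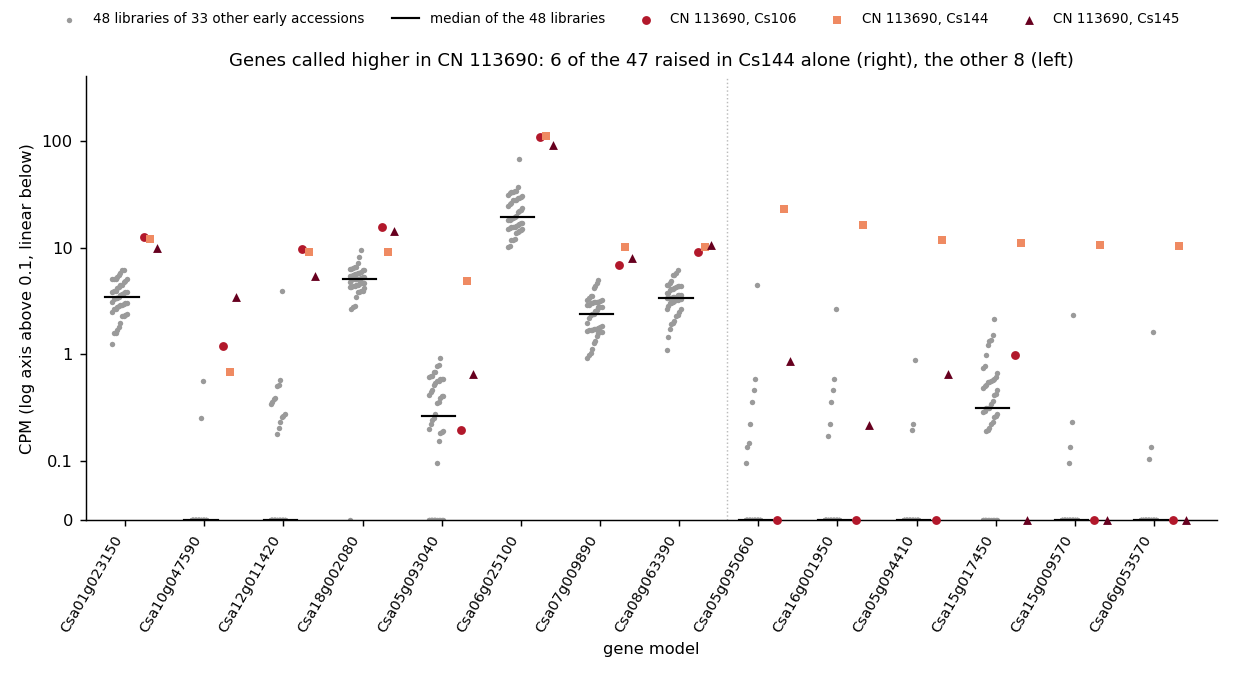
Expression (CPM, on an axis that is logarithmic above 0.1 and linear below) of genes called higher in CN 113690. To the right of the dotted line are 6 of the 47 genes raised in Cs144 alone, in which Cs106 and Cs145 lie near the other libraries, and to the left the other 8, of which 6 have all 3 coloured symbols above all 48 grey points.

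Few genes were higher in all 3 libraries. Of the 8 higher calls not raised in Cs144 alone, 6 had every CN 113690 library above all 48 others. Csa06g025100.1 was the most abundant, with 109.2, 111.2 and 91.1 CPM against 10.14 to 67.8 CPM (median 19.1). Its log2 difference was 2.21 (SE 0.44, adjusted p = 9.4e-03, and 0.0501 without Cs144). Csa12g011420.1 was nearly specific to CN 113690 among these libraries: it had 9.68, 9.09 and 5.41 CPM, a median of 0 in the others and a highest other value of 3.88 CPM. Its log2 difference was 5.14 (SE 0.90, adjusted p = 1.4e-03), and it stayed called without any 1 of the 3 libraries.

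Csa01g023150.1 had 12.4, 11.9 and 9.96 CPM against 1.25 to 6.15 (median 3.42), a log2 difference of 1.69 (SE 0.31, adjusted p = 3.6e-03). Csa07g009890.1 had 6.91, 10.04 and 8.01 CPM against 0.91 to 4.99 (log2 difference 1.84, SE 0.40, adjusted p = 0.0351), but its adjusted p was 0.395 without Cs144. Both sets of CN 113690 values were clear of the other libraries. Csa08g063390.1, on chromosome 8, had 9.08, 10.2 and 10.6 CPM against 1.10 to 6.12 (log2 difference 1.49, SE 0.31, adjusted p = 0.0170, and 0.0851 without Cs144). Csa10g047590.1, named after its values were seen since it lies under 5 CPM, had 1.19, 0.68 and 3.46 CPM against a median of 0 and a highest value of 0.56 CPM, and missed the threshold without Cs145. Csa18g002080.1, with 15.4, 9.09 and 14.3 CPM, overlapped the other libraries, whose highest value was 9.49 CPM (log2 difference 1.32, SE 0.27, adjusted p = 0.0147, and 0.0875 without Cs106). The remaining call, Csa05g093040.1, named for completeness, was also highest in Cs144 (0.20, 4.88 and 0.65 CPM) and was not called without it. Among the late accessions the first 5 of these genes lay between the lowest and the highest early accession, Csa06g025100 in CN113662 apart, which was at 77.2 CPM.

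Setting the fit aside, 69 genes (0.135%) had all 3 CN 113690 libraries above every other library at a mean of 1 CPM or more, and 26 (0.0508%) had them below, of which 6 and 10 were called. The same counts were 45 and 11 for CN 113717 and 7 and 3 for CN 113757, the other accessions with 3 Cs libraries. When the accessions' libraries of all code series were used, the counts for CN 113690 fell to 17 above and 13 below. The non-overlapping genes that missed the threshold included Csa17g042620.1, a strongly expressed gene at 321, 276 and 325 CPM against 2.81 to 226 (median 60.5; adjusted p = 1), chosen after its values were seen.

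Several of the genes above all other libraries were neighbours, so the log2 differences were read along the chromosomes. This was done after the values were seen and is a description. Over the 37582 gene models with a median of at least 2 CPM in the other libraries, medians were taken in windows of 20 consecutive models. The 37202 windows on 20 chromosomes had a median of -0.01, with the 1st percentile at -0.24 and the 99th at 0.20. The highest window, at 0.88, was on chromosome 17, and the highest window apart from it, at 0.58, was on chromosome 8. The next highest reached 0.37. The lowest window, at -0.61, ran from Csa12g049690 to Csa12g051050 on chromosome 12 and lay farther from 0 than that on chromosome 8. Further low windows included 1 at -0.49 on chromosome 2 and 1 at -0.45 on chromosome 17, from Csa17g011030 to Csa17g011370. Only the raised windows on chromosomes 17 and 8 were followed further.

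On chromosome 17 the stretch ran from Csa17g010280 to Csa17g010650, which is 38 loci (632 to 669 of 4995). All 21 expressed gene models in it had a log2 difference above 0, from 0.15 to 1.42 with a median of 0.86, and 14 of the 21 had an unadjusted p under 0.05 (2.49% of all genes did), although 0 passed the adjusted threshold in edgeR. DESeq2 called 1 of them (0.0957% of all genes) and limma-voom with the accession as a block called 7 (0.486% of all genes). The stretch was found by these same differences, so nothing is read from these counts. Over the 21 genes the median log2 difference from the other libraries was 0.94, 1.01 and 0.97 in Cs106, Cs144 and Cs145, so close to a doubling in each. The 12 expressed genes before the stretch had a median of -0.05 and the 12 after it of -0.12. Csa17g010400.1 had 59.8, 50.9 and 65.8 CPM against 17.5 to 47.6 (median 25.9), and Csa17g010610.1 had 15.2, 14.5 and 15.6 CPM, above the highest other value of 12.6. Neither reached the threshold, with adjusted p-values of 0.253 and 0.105.

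The chromosome 17 pattern was not confined to CN 113690. The Cs library of CAM 229 had 0.91 over the same 21 genes, that of CN 113656 had 0.74, that of CN 101986 had 0.64 and that of CN 113724 had 0.36, and the highest value in the remaining 44 libraries was 0.20. In the 86 libraries of the other code series, measured against their own series, the 8 libraries of these 4 accessions ranged from -0.02 to 1.04, and 7 of them were above the highest value of the other 78 libraries, 0.17. The 11 late libraries had -0.43 to 0.04.

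**Figure D3:**
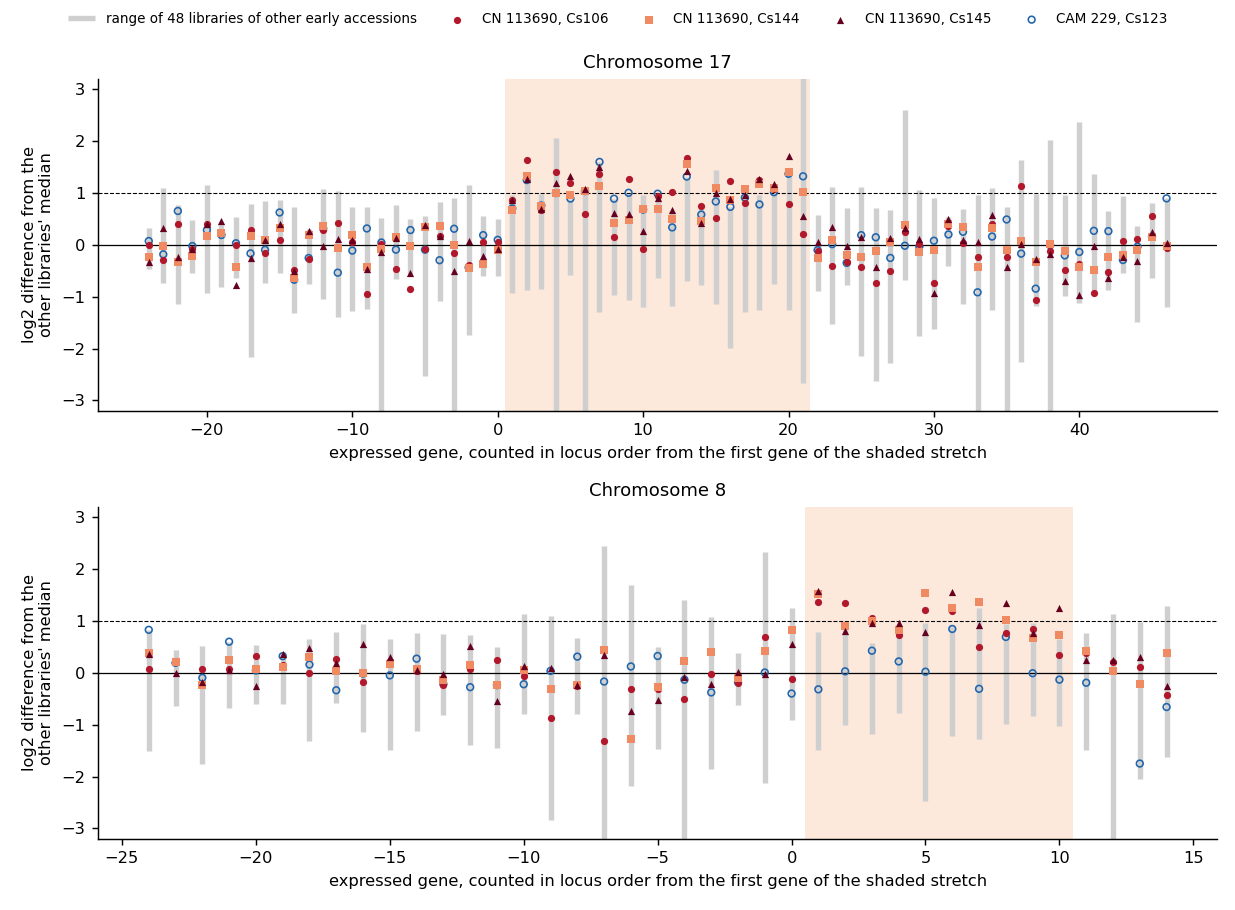
Difference in log2 CPM from the median of the 48 libraries of other early accessions, for expressed genes in locus order around the stretches on chromosome 17 and chromosome 8 (shaded). Grey lines are the range of the 48 libraries (cut at 3.2 on either side), filled symbols the 3 CN 113690 libraries and open circles the library of CAM 229. The CN 113690 libraries lie near 1 (dashed line, a doubling) within both stretches and near 0 beside them, and CAM 229 follows them on chromosome 17 only.

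On chromosome 8 the stretch ran from Csa08g063390 to Csa08g063580, loci 3864 to 3883 of 3892. All 10 expressed gene models in it were higher in each CN 113690 library than the other libraries' median, by 0.74 to 1.49 on the log2 scale in the fit, with a median of 1.02. All 10 had an unadjusted p under 0.05 and 1, Csa08g063390, was called by edgeR and by DESeq2, while limma-voom called 3, beside the same shares of all genes and with the same limit. Over these 10 genes Cs106, Cs144 and Cs145 lay at 0.96, 1.01 and 0.97, and the other 48 libraries between -0.55 and 0.51. The window that pointed to this stretch began earlier, at Csa08g063210, and had a median of 0.58. The stretch and its ends were chosen by these same differences, so nothing is read from the gap. The 12 expressed genes before the stretch had a median of -0.19. Csa08g063490.1, for example, had 11.7, 12.1 and 15.2 CPM against a highest other value of 9.32 (adjusted p = 0.392). In the libraries of the other code series the highest value was 0.51, and in the late libraries 0.36, with the same limit.

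**Figure D4:**
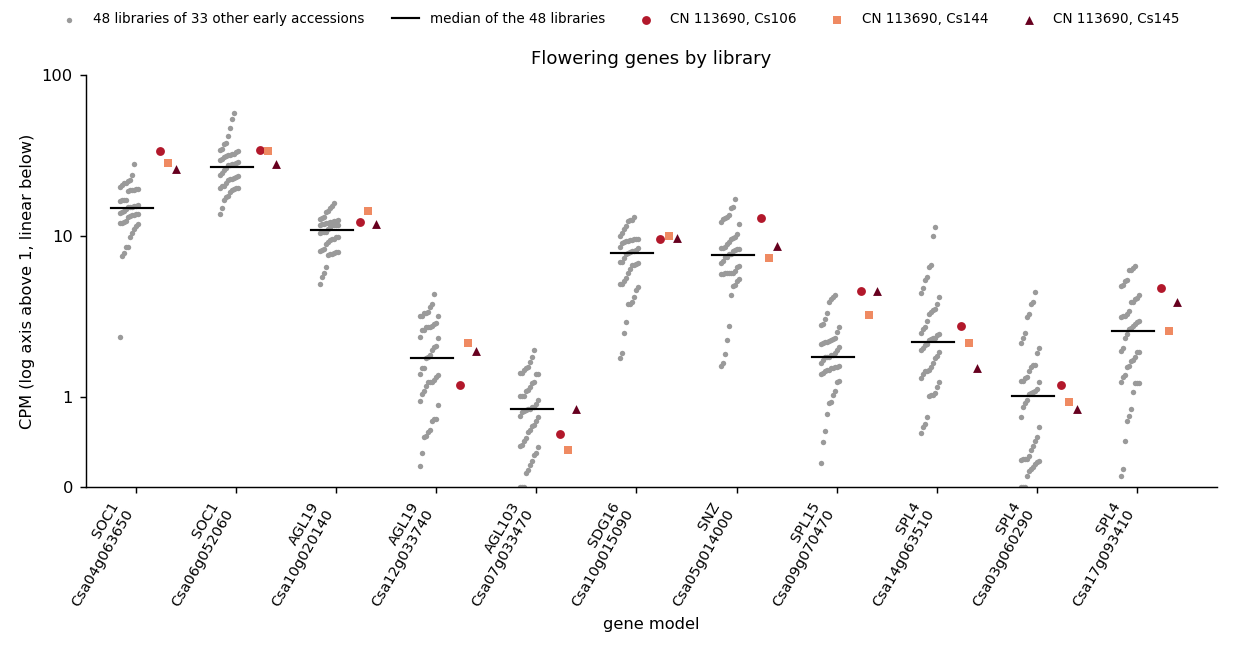
Expression (CPM, on an axis that is logarithmic above 1 and linear below) of the 11 gene models of flowering genes that the study names. Grey points are the 48 libraries of other early accessions, bars their median and coloured symbols the 3 CN 113690 libraries, which lie at the top of the range for SOC1 on chromosome 4 and for SPL15 and inside it for the others.

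Since CN 113690 flowered first, the flowering genes named in the study were looked at in turn. None of the 11 gene models was called by edgeR, beside a background of 0.156%. In the same test 2 (18.2%, beside 2.49% of all genes) had an unadjusted p under 0.05. In simulated counts this test missed most 2-fold differences, so a difference of that size could go uncalled. By DESeq2 0 of the 11 passed, and by limma-voom with the accession as a block 0 did. The study picked these genes on these samples. In CN 113690 7 were above 0 and 4 below, and their median log2 difference was 0.26, beside a median of -0.02 over all genes. The SOC1 copy on chromosome 4, Csa04g063650.1, was at 33.8, 28.6 and 25.98 CPM, and the other 48 libraries were at 2.38 to 27.95 (median 14.9). CN 113690 was the highest of the 34 accessions in it, and only Cs145 was within the range of the others. The log2 difference was 1.01 (SE 0.34), with an unadjusted p of 0.00584 and an adjusted p of 1. The copy on chromosome 6, Csa06g052060.1, was at 34.6, 33.6 and 28.1 CPM within 13.7 to 58.03 (median 27.1), and CN 113690 ranked 9th. Whether the copies differed in this was not tested.

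SPL15, Csa09g070470.1, had 4.54, 3.26 and 4.55 CPM against 0.26 to 4.32 (median 1.79). CN 113690 ranked 2nd of 34 in it, with a log2 difference of 1.03 (SE 0.43, unadjusted p = 0.0206, adjusted p = 1). The SPL4 copies Csa14g063510, Csa03g060290 and Csa17g093410 had log2 differences of -0.42, -0.35 and 0.40, each smaller than its SE. Of the AGL19 copies, MADS-box genes that promote flowering in Arabidopsis, Csa10g020140 ranked 5th (log2 difference 0.33, SE 0.33) and Csa12g033740 ranked 17th (-0.02, SE 0.69). SNZ, the floral repressor, was at 13.03, 7.33 and 8.66 CPM, around the median of 7.61 of the others (log2 difference 0.26, SE 0.56). The histone methyltransferase gene SDG16 was at 9.68, 10.04 and 9.74 CPM within 1.74 to 13.2 (0.46, SE 0.50), and the MADS-box gene AGL103 was at 0.59, 0.41 and 0.87 CPM, near the lowest levels that could be counted (-0.48, SE 0.72). With the spread taken between libraries of 1 accession in place of that between accessions, SOC1 on chromosome 4 and SPL15 passed the threshold (log2 differences of 1.04 and 1.12, adjusted p = 3.3e-03 and 0.0311), but so did 3559 genes in all. Csa13g001000, Csa13g001020, Csa20g082250 and Csa20g082270 missed it there, with log2 differences of -6.76, -4.24, -5.29 and -6.99. Each had no read in 1 other accession, which leaves that accession's coefficient without a bound. Their SEs were 4235524 or more, so this fit could not test them.

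The larger lists gave no more. All genes of the tan module, a co-expression module that the study built on these samples and related to FT, were tested, and 0 were called by edgeR or by DESeq2. Limma-voom called 2, of which 1 was higher, which is 1.22% of the module beside 0.486% of all genes. In the edgeR fit 53 of them were below 0 in CN 113690 and the others above it, with a median log2 difference of 0.13, and 7 (4.27%, beside 2.49% of all genes) had an unadjusted p under 0.05. Of 30 genes at or beside the SNPs that the study associated with both this module and FT, 21 were tested (median -0.08). None was called by edgeR, DESeq2 or limma-voom, and 0 had an unadjusted p under 0.05 in edgeR's test.

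The remaining question was whether the genes that set CN 113690 apart followed FT among the other early accessions. Without CN 113690, a slope on FT was fitted over the 33 accessions, and 448 of 50766 genes (0.882%) passed an adjusted p of 0.05, 443 of them rising with FT. This count rested largely on 1 library: it was 11 without the library Cs082 of CAM 219 and 13 without CAM 219. Cs082 correlated with Cs128, the other Cs library of CAM 219, at r = 0.848. For SOC1 on chromosome 4 the slope was -0.07 on the log2 scale per day (adjusted p = 0.921) and for SPL15 it was -0.07 (adjusted p = 0.971). For SNZ it was -0.25 (adjusted p = 0.443). Of the 80 genes called in CN 113690, 36 entered this fit, and 0 of them had a slope past the threshold in edgeR's test. In the same test 5 had an unadjusted p under 0.05, beside 3787 of all 50766 genes. The 5 were Csa12g011420, which fell with FT, and Csa05g095060, Csa09g052150, Csa15g009570 and Csa16g001950, which rose with it (slopes of 1.11 to 1.55). Those that rose were raised in Cs144 alone within CN 113690, and their highest other library was Cs048. Whether their slopes rest on Cs048 was not tested. Csa12g011420, the gene nearly specific to CN 113690, had a slope of -0.96 (SE 0.42, adjusted p = 0.554).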

How the data were processed

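Leaf RNA was made into TruSeq libraries and read in pairs on a HiSeq instrument. The authors used Trimmomatic 0.32 for trimming, STAR 2.7.10a for alignment to a C. sativa genome and featureCounts 2.0.1 for counts per gene model. The deposited values are these raw counts, not normalized and not pooled. Strand setting and annotation version are not given in the sources used here, so overlapping genes cannot be separated. Groups were taken from the genotype and FT labels. Libraries with fewer than 200000 counts were left out, which removed 1 early Cs library of 167 counts and 9 early libraries of other code series.

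Counts were summed per accession and fitted with edgeR 4.0.16 (R 4.3.3, TMM scaling, filterByExpr with a minimum group of 1, glmQLFit and glmQLFTest, Benjamini-Hochberg adjustment, threshold 0.05), with 1 sum of CN 113690 against 33 others. CPM values are per library after TMM scaling over the genes tested. Depth limits precision: 1 read is 0.14 to 0.22 CPM in the CN 113690 libraries. Intervals from few reads are exact Poisson intervals and cover counting error only. A log CPM used a prior count of 1. The method was checked on simulated counts, with genes of at least 5 CPM changed by known folds. Of 25 genes set 2-fold higher 7 were called, and of 25 set 2-fold lower 4 were. Of 50 genes set 4-fold higher 48 were called, and of 25 set 4-fold lower 17 were. Among 49779 genes fitted, 12 unchanged ones were called. DESeq2 1.42.0 and limma 3.58.1 were alternatives, as were other filters, scalings, units, library sets and left-out libraries.

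Genes named are those called with all 3 CN 113690 libraries outside all others and a mean of at least 5 CPM in the higher group (up to 12 per direction), the 5 most abundant called per direction, called genes of the 2 longest runs, and the flowering genes. Others are named as part of a count. Members, lists and this rule were chosen with earlier results of these data known. The stretches of neighbouring genes were found in the data.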

Additional observations from a re-analysis of the deposited data

Results flagged for a closer look

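Among the 4 late accessions, 3 of the 32 called genes looked at had 1 accession far from the other 3. Csa06g025100, which was higher in CN 113690, was at 77.24 CPM in CN113662 and at 17.2 to 19.3 CPM in the other late accessions. Csa04g035770, which was lower in CN 113690, was at 17.89 CPM in CN113692 against 12.9 to 13.7 CPM. Csa20g082260, at the end of chromosome 20, was at 25.96 CPM in CN113692 against 39.6 to 42.3 CPM. Chance alone sets such a value apart in about 1 of 20 groups.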

How the results depend on the processing

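The share of tested genes that were called, 0.156% (80 genes), depended on Cs144, on the filter and on what was taken as the unit. Leaving out 1 CN 113690 library in turn gave 0.045% to 0.24%, the lowest without Cs144, and leaving out Cs081, Cs082, Cs143 and Cs144 together, chosen after seeing the data, gave 0.052% (26 genes). No filter gave 0.483% (315 higher and 34 lower), at least 10 counts in 10 accessions 0.0597% (4 and 23), and libraries of all code series 0.397% (219 genes, 55 of them lower). DESeq2's test called 0.0957% (8 higher and 41 lower), limma-voom with the accession as a block 0.486% (230 and 19), libraries as units 0.904% (279 and 184) and 1 coefficient per accession 6.95% (2577 and 982). Of the 25 lower and 55 higher genes, 23 and 4 were also called under the stricter filter, 18 and 4 without Cs144, 21 and 6 by DESeq2, 22 and 55 with all code series, 13 and 55 with 1 coefficient per accession and 7 and 19 by limma-voom. The lower genes missing with 1 coefficient per accession each had no read in at least 1 other accession. That fit gave them no usable SE and could not test them. DESeq2's size factors (81), no minimum total (80), a log2 minimum of 1 (79), leaving out CAM 219 (87) or CN 101990 (86) changed the count little. Cs codes from 100 gave 75, of which 52 were among the 80. The FT slope count of 448 fell to 268 with all code series, 33 by DESeq2, 13 without CAM 219, 11 without the library Cs082 and 9 without the 2 accessions farthest in FT. The 95 genes outside all other libraries became 30 with all code series. Small differences changed sign: leaving out 1 CN 113690 library in turn gave -0.01 to 0.49 for SNZ and -0.25 to 0.16 for AGL19 on chromosome 12, and with 1 coefficient per accession the latter was at 0.17 and SPL4 on chromosome 3 at 0.35. No paired analysis was possible because the labels give no replicate numbers. Losses of single calls among the named genes stand in the text. Genes under about 1 CPM rest on a few reads per library.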
